A study of Mus musculus with 4 samples.

Results

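The 6 lymphatic endothelial genes Lyve1, Pdpn, Flt4, Prox1, Reln and Mmrn1 were described by all of their 12 probe sets, of 18193 genes and 34945 probe sets with a single gene symbol on the arrays. They are genes used to mark lymphatic endothelium, and the list was selected on the signals of these same 4 arrays, so that the values below are a description and not a test. The study asked what colonization of germ-free mice with a Lactobacillus does to the gut. RNA of Peyer's patch (PP) cells and of intestinal epithelial cells (IEC) came from C57BL/6 mice that were germ-free (GF) and from GF mice monocolonized with L. NK318.1 and sampled 2 weeks later, all kept in vinyl isolators. Each of the 4 groups, GF-PP, NK318.1-PP, GF-IEC and NK318.1-IEC, was 1 Affymetrix 3′ expression array of RNA pooled from several mice, so that there was no replicate and no spread between mice. The labels give neither the age nor the sex of the pools, and no GF group given another bacterium was analysed here.

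Lymphatic capillaries drain fluid, dietary fat and immune cells from the intestinal wall, and in the Peyer's patch lymphatic sinuses carry lymphocytes away from the follicles. Their endothelial cells take their identity from the transcription factor PROX1 and grow in response to VEGF-C and VEGF-D through the receptor VEGFR3. LYVE1, podoplanin, reelin and multimerin 1 mark these cells, but none of the 4 is made by them alone. LYVE1 is also found on resident macrophages, podoplanin on fibroblastic reticular cells and multimerin 1 in platelets and megakaryocytes.

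The genes lie apart in the genome, on build GRCm38.p6 at chr1:190118035-190170827 (Prox1), chr4:143267409-143299564 (Pdpn), chr5:21884454-22344705 (Reln), chr6:60944317-60989378 (Mmrn1), chr7:110850607-110862953 (Lyve1) and chr11:49609679-49652739 (Flt4). Promoters of 5 of the 6, all but Lyve1, were matched in the RefSeq table of that build, as the 250 bases before the annotated start of the gene. Those of Reln, Mmrn1, Pdpn and Flt4 are shown, the matched genes with a signal above the floor described below: Reln and Mmrn1 had the ratios furthest from 0 and Flt4 the nearest. Capitals mark the motifs that were found on either strand. For Reln and Flt4 they mark the GC box GGGCGG or its reverse complement, for Mmrn1 the SOX motif AACAAT, and for Pdpn the reverse complement of the forkhead motif GTAAACA followed by the nuclear receptor motif AGGTCA.
Reln, chr5:22344706-22344955, minus strand: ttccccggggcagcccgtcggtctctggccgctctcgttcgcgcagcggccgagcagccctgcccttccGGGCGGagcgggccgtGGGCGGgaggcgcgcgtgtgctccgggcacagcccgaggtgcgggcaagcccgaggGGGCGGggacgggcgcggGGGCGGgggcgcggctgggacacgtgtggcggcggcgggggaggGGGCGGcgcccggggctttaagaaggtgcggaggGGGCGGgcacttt
Mmrn1, chr6:60944067-60944316, plus strand: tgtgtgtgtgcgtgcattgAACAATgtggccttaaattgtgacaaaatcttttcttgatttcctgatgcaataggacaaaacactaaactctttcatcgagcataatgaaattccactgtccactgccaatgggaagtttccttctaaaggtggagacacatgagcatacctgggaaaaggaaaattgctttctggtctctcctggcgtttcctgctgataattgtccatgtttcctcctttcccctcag
Pdpn, chr4:143299565-143299814, minus strand: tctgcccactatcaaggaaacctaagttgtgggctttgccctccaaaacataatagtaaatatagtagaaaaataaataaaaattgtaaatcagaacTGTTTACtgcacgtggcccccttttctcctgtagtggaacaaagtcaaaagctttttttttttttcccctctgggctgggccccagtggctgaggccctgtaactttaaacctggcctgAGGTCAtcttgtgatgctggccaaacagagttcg
Flt4, chr11:49609429-49609678, plus strand: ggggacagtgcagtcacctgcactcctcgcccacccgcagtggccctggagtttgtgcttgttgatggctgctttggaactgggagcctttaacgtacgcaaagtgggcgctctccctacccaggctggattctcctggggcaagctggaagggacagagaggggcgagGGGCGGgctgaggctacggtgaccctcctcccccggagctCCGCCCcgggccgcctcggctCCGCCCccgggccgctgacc

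Base composition split these promoters into 2 kinds. The Reln promoter had a GC content of 80%, higher than 98.8% of 27025 promoters, with 37 CpG dinucleotides and 6 GC boxes, the nearest 13 bases before the start. The Flt4 promoter had 68.4% GC, 16 CpG and 3 GC boxes, and that of Prox1 had 64.8% GC, 20 CpG and 2 GC boxes. Mmrn1 and Pdpn had GC-poor promoters, with 42.4% and 43.2% GC, 3 and 2 CpG and no GC box, beside a median of 52% GC and 6 CpG over all promoters. Of the other motifs searched, Mmrn1 had the SOX motif 231 bases before its start, and Pdpn had the forkhead motif at 153 and the nuclear receptor motif at 34. Prox1 had the TATA motif TATAAA at 34 only as its reverse complement TTTATA, on the strand opposite to the gene. The ETS motif AGGAAG and the GATA motif AGATAA were found in none of the 5. Among all promoters of the same length, counting either strand, 32.9% held a GC box, 29.2% the ETS motif, 13.8% the nuclear receptor motif, 13.0% the TATA motif, 10.3% the GATA motif, 9.65% the SOX motif and 3.09% the forkhead motif. Reln and Mmrn1, which had the lowest ratios in the Peyer's patch and the highest in the epithelial cells, shared none of the 7 motifs.

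The arrays had close median signals, from 23.0 to 23.3, and carried what their labels say. The B cell gene Ms4a1, which encodes CD20, had a signal of 3969 in GF-PP and 4097 in NK318.1-PP, beside 24.3 in GF-IEC and 13.0 in NK318.1-IEC. Epcam, an adhesion protein of epithelial cells, had 75.9 and 57.0 in the patch, beside 3926 in GF-IEC and 3623 in NK318.1-IEC. Xist, transcribed from the inactive X chromosome of female cells, had 21.7 in GF-PP, 4586 in NK318.1-PP, 46.7 in GF-IEC and 4889 in NK318.1-IEC, so that in both tissues a difference between female and male pools cannot be told apart from colonization. The 3′ over 5′ ratio of the Actb controls, a measure of RNA breakage that rises with it, was 1.60 in GF-PP, 1.74 in NK318.1-PP, 2.73 in GF-IEC and 4.10 in NK318.1-IEC. Signals below 15.5, a floor that left 59.1% to 61.0% of the probe sets above it, were raised to the floor before a ratio was taken. A gene is called measured where at least 1 array of the tissue exceeded the floor, and its ratio is that of the probe set with the largest mean log2 signal over the 4 arrays.

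In the Peyer's patch, all 5 measured lymphatic genes had a lower signal in colonized than in GF mice, and Reln and Mmrn1 were at least 2-fold lower. Of all 12736 measured genes, 7291 also had a ratio below 0. LYVE1 is a hyaluronan receptor on the surface of lymphatic capillaries. The Lyve1 signal was 446 in GF-PP and 229 in NK318.1-PP, a log2 ratio of −0.96 or 1.95-fold lower, just short of the 2-fold limit. A second Lyve1 probe set, designed from the same transcript, had 182 and 115, which is 1.59-fold lower. Podoplanin, a membrane glycoprotein that binds CLEC-2 on platelets, keeps blood and lymph vessels apart. The Pdpn signal was 36.7 in GF-PP and 22.7 in NK318.1-PP, 1.62-fold lower (log2 ratio −0.69). Reelin is a large secreted glycoprotein, released by lymphatic endothelial cells that touch smooth muscle. The Reln signal was 277 in GF-PP and 99.6 in NK318.1-PP, 2.79-fold lower (log2 ratio −1.48). Multimerin 1 is a secreted protein that binds coagulation factor V. The Mmrn1 signal was 35.8 in GF-PP and 14.4, under the floor, in NK318.1-PP, at least 2.31-fold lower. In bulk RNA, fewer lymphatic endothelial cells, less of these RNAs per cell and a change in other cells that make them cannot be told apart.

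The receptor gene had a ratio closer to 0, and the transcription factor gene could not be measured. Flt4, the gene of VEGFR3, had 60.8 in GF-PP and 51.0 in NK318.1-PP, 1.19-fold lower (log2 ratio −0.25), and its other probe set had 32.2 and 34.0, a log2 ratio of 0.08. The probe sets of Flt4 thus lay on either side of 0. Prox1, the defining transcription factor of lymphatic endothelium, lay under the floor with all 3 of its probe sets on all 4 arrays, with signals of 2.10 to 12.4, and no ratio was taken. The lymphatic label therefore rests on genes other than its defining factor in these data. The further probe sets of Reln and Mmrn1 were also under the floor on every array, at 3.12 to 3.55 and 2.28 to 2.64, so that the ratio of each of these genes rests on 1 probe set.

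In PP, 2 of the 5 genes measured were at least 2-fold lower and 0 at least 2-fold higher, where 0.573% of the 12736 measured genes were lower and 0.149% higher by that limit. Nothing is read from these shares, because the list was chosen with this contrast known. The median log2 ratio was −0.96 over the 5 genes and −0.03 over all measured genes, 95% of which lay between −0.60 and 0.41. Lyve1, Pdpn, Reln and Mmrn1 lay below that range and Flt4 lay inside it.

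In the epithelial cells, the same 5 genes had a higher signal in colonized than in GF mice, and Reln and Mmrn1 were at least 2-fold higher. Of all 13874 measured genes, 7270 also had a ratio above 0. The Lyve1 signal was 48.8 in GF-IEC and 75.1 in NK318.1-IEC, 1.54-fold higher (log2 ratio 0.62), and its second probe set had 38.6 and 53.6, 1.39-fold higher. The Pdpn signal was 33.5 in GF-IEC and 56.8 in NK318.1-IEC, 1.69-fold higher (log2 ratio 0.76). Both genes were thus above the floor in epithelial cells of either kind of mouse. Reln went from under to over the floor, with a signal of 12.2 in GF-IEC and 56.1 in NK318.1-IEC, at least 3.62-fold higher. Mmrn1 did the same, with 7.63 in GF-IEC and 50.0 in NK318.1-IEC, at least 3.22-fold higher. Flt4 had 28.7 and 29.7 with one probe set and 41.4 and 45.1 with the other, log2 ratios of 0.05 and 0.12. Flt4 was thus the gene of the 5 whose arrays lay closest together in both tissues.

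**Figure D1:**
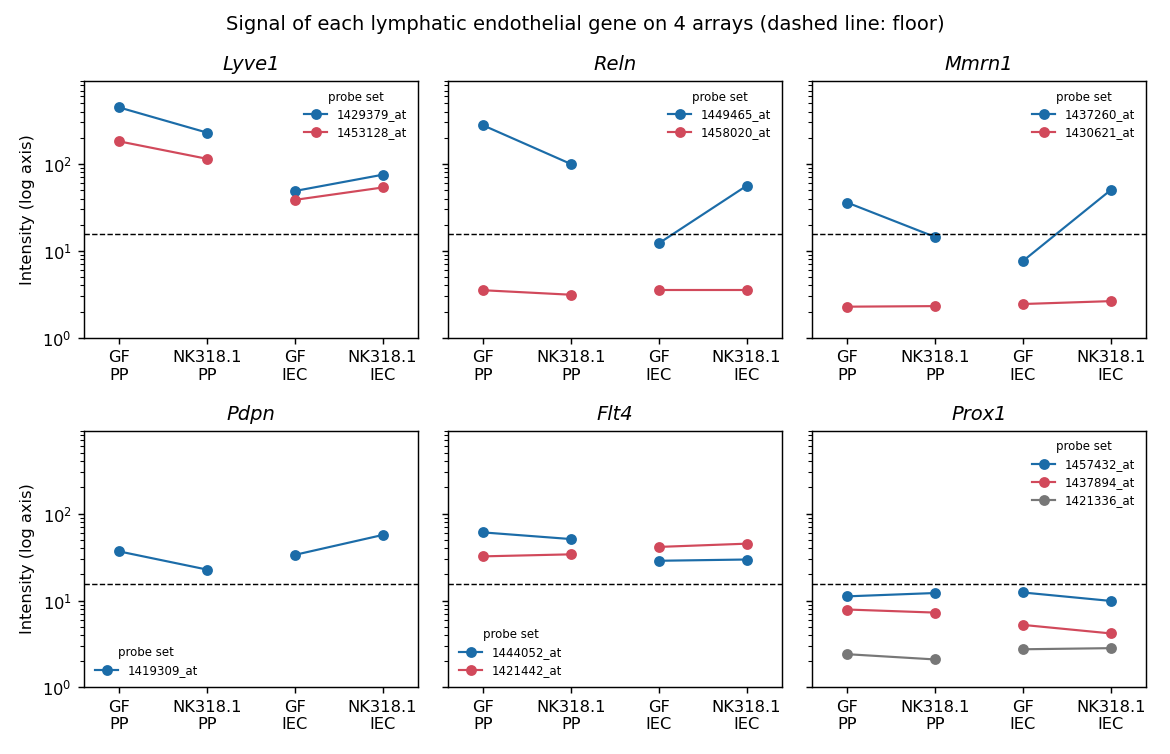
Signal (deposited intensity, log axis) of every probe set of the 6 genes on the 4 arrays, 1 point per array, with lines joining the GF and the colonized array of a tissue and the dashed line at the floor of 15.5. The lines of Lyve1, Pdpn and the brighter probe sets of Reln and Mmrn1 fall in the Peyer's patch (PP) and rise in the epithelial cells (IEC), those of Flt4 stay nearly level, and every point of Prox1 lies under the floor.

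Of the 5 measured genes in the epithelial cells, 2 were at least 2-fold higher and 0 at least 2-fold lower, where 2.63% of the 13874 measured genes were higher and 1.54% lower. Again nothing is read from these shares. The median log2 ratio was 0.76 over the 5 genes and 0.02 over all measured genes, 95% of which lay between −0.86 and 1.03. In this tissue only Reln and Mmrn1 lay above that range, whereas Lyve1 and Pdpn lay within it. The 3′ over 5′ ratio of Actb was highest on the NK318.1-IEC array, and its part in these differences was not tested.

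The ratios of Lyve1, Pdpn, Reln and Mmrn1 thus had opposite signs in the 2 tissues, as did that of the first Flt4 probe set, at −0.25 and 0.05. The other Flt4 probe set lay above 0 in both, at 0.08 and 0.12. Of 12260 genes measured in both tissues, 3713 (30.3%) had a ratio below 0 in the Peyer's patch and above 0 in the epithelial cells, so the bare direction was common. Far fewer, 7 genes or 0.0571%, were at least 2-fold lower in the patch and at least 2-fold higher in the epithelial cells. Reln and Mmrn1 were 2 of these 7, and nothing is read from this, because the list was chosen with both contrasts known. The other 5, named here after their values were seen, were the immunoglobulin gene Ighg3, the matrix genes Mgp and Fn1, the complement inhibitor gene Serping1 and the transporter gene Abcc3, with log2 ratios of −2.50 to −1.01 in the patch and 1.08 to 1.94 in the epithelial cells. Mgp, which encodes matrix Gla protein, had −1.78 and 1.49, and Fn1, which encodes fibronectin, had −1.02 and 1.08.

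**Figure D2:**
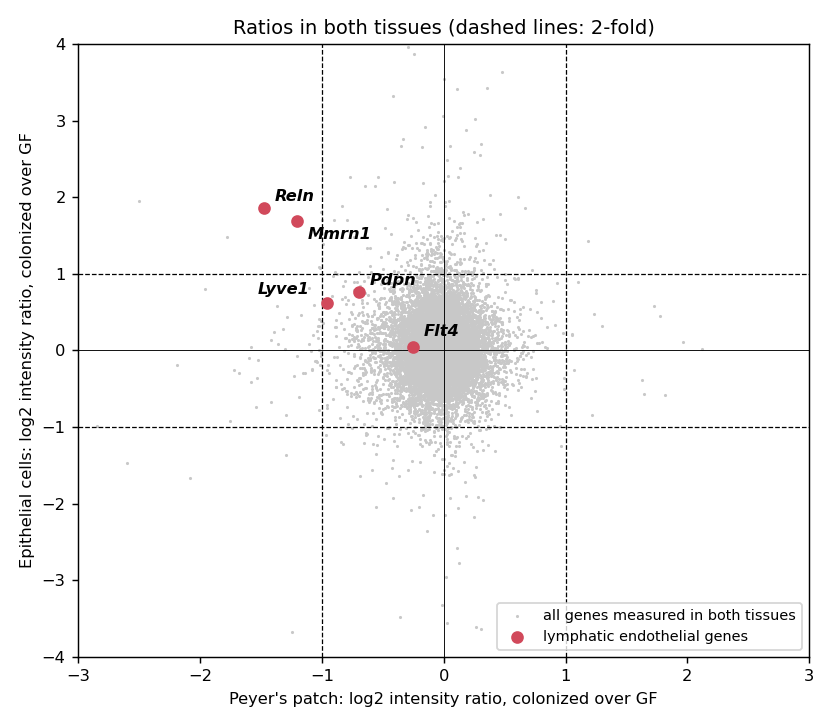
Log2 ratio of colonized over GF signal in the Peyer's patch (horizontal axis) against the epithelial cells (vertical axis), 1 grey point per gene measured in both tissues and red points for the 5 measured lymphatic genes, with dashed lines at 2-fold. Reln and Mmrn1 lie beyond 2-fold on both axes, Lyve1 and Pdpn lie inside the 2-fold lines with opposite signs on the axes, Flt4 lies near the centre, and 13 of the 12260 genes fall outside the axes.

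The signals of the 2 tissues were further apart in GF than in colonized mice for Lyve1, Reln and the first Flt4 probe set, and their order turned for Mmrn1 and Pdpn. In GF mice, the signal of Reln was at least 17.9-fold higher in the Peyer's patch than in the epithelial cells, that of Lyve1 9.15-fold higher, that of Mmrn1 at least 2.31-fold higher and that of Flt4 2.12-fold higher, while Pdpn had 36.7 and 33.5. In colonized mice, Lyve1 was 3.05-fold higher and Reln 1.78-fold higher in the patch, and Flt4 was 1.72-fold higher. Mmrn1 and Pdpn were instead higher in the epithelial cells of colonized mice, at least 3.22-fold and 2.50-fold. By array, the signal of Lyve1, Reln and the first Flt4 probe set was thus highest in GF-PP, and that of Mmrn1 and Pdpn was highest in NK318.1-IEC. The other Flt4 probe set was higher in the epithelial cells in both kinds of mice, with log2 ratios of patch over epithelial cells of −0.36 in GF and −0.41 in colonized mice. At the 2-fold limit, 4 of 5 genes were higher and 0 lower in the GF patch, where 18.5% and 16.0% of 14036 genes were, and 1 was higher and 2 lower in the colonized patch, where 16.8% and 18.4% of 14030 genes were.

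The further genes of the lymphatic pathway were looked at as 5 lists of 33 genes in all, of which 31 had a probe set of their own. In PP, 21 were measured and 0 of them was 2-fold apart, 14 lay below 0 and 7 above, and the median log2 ratio was −0.12. In the epithelial cells, of 20 genes measured, 2 were higher by at least 2-fold and 0 lower, 13 lay above 0 and 7 below, and the median was 0.27. The 2 genes were Cxcl12, a chemokine of stromal and endothelial cells, with 11.8 in GF-IEC and 43.8 in NK318.1-IEC, and Gja1, the gene of the gap junction protein connexin 43, with 12.9 and 37.5. Both were under the floor in GF-IEC and higher by at least 2.82-fold and 2.42-fold, but another probe set of Gja1 gave a log2 ratio of 0.38. Another probe set of Cxcl12, measured in the patch, was under the floor on both epithelial arrays, so its ratio there rests on 1 probe set.

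By role, the ligands came first. Vegfc, which encodes the main growth factor of lymphatic vessels, had 27.6 in GF-PP, 22.3 in NK318.1-PP, 54.7 in GF-IEC and 45.1 in NK318.1-IEC, lower in colonized mice in both tissues by log2 ratios of −0.31 and −0.28. Ccbe1, whose product is needed to cut VEGF-C into its active form, was measured in the epithelial cells alone, with 24.7 and 44.3. Among receptors, Kdr, the gene of VEGFR2, had 118 in GF-PP, 109 in NK318.1-PP, 47.3 in GF-IEC and 50.6 in NK318.1-IEC. Nrp2, a co-receptor of VEGF-C, had log2 ratios of −0.11 in the patch and 0.41 in the epithelial cells. Its 2 other measured probe sets had −0.42 and −0.34 in the patch, but −0.75 and −0.40 in the epithelial cells, the opposite sign. The scavenger receptor gene Stab2 went from 79.4 to 59.8 in the patch. The values of the receptor genes thus stayed within 2-fold, as those of Flt4 did.

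Among the transcription factors that act with or before PROX1, Sox18 had 23.0 in GF-PP and 30.9 in NK318.1-PP. Nr2f2 had log2 ratios of 0.11 in the patch and 0.19 in the epithelial cells, where 3 other probe sets ranged from −0.49 to 0.12. Gata2, which is needed for lymphatic valves, had 79.8 and 48.6 in the patch, a log2 ratio of −0.71 with one probe set and −0.39 with another. Foxc2, a factor of lymphatic valves, was under the floor. Of the junction and valve genes, Cdh5, the gene of VE-cadherin, which joins endothelial cells of both vessel kinds, had the lowest ratio in the patch, −0.88, with 66.2 in GF-PP and 35.9 in NK318.1-PP. The scavenging chemokine receptor genes Ackr2 and Ackr4 had log2 ratios of 0.18 and −0.15 in PP, beside −0.52 and 0.57 in IEC. The pathway genes thus held both directions in each tissue.

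**Figure D3:**
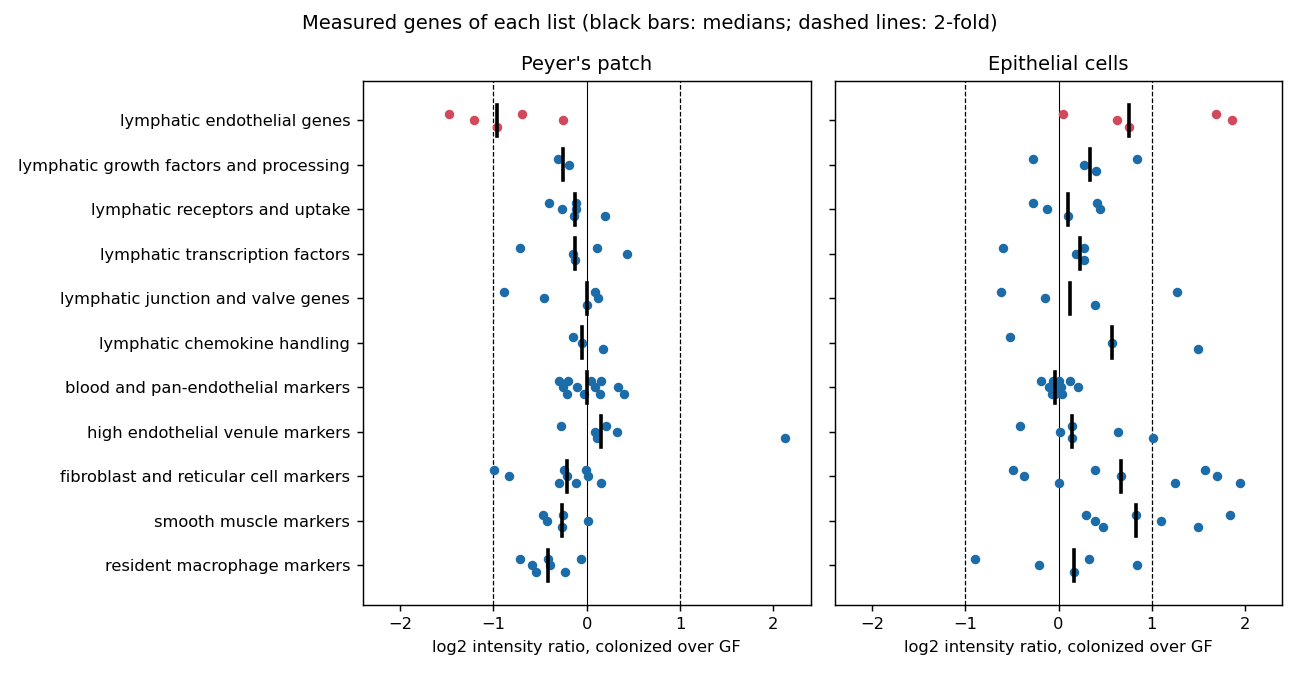
Log2 ratio of colonized over GF signal of each measured gene (points), with the median of each list as a black bar and dashed lines at 2-fold, for the lymphatic endothelial genes (red), the 5 pathway lists and the markers of 5 other cell types (blue). The red points lie below 0 in the Peyer's patch and above 0 in the epithelial cells, the blood and pan-endothelial markers lie around 0 in both, and the fibroblast and smooth muscle markers reach beyond 2-fold in the epithelial cells.

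The blood and pan-endothelial list had medians near 0 in both tissues. Of 12 measured blood and pan-endothelial markers in the Peyer's patch, 0 was 2-fold apart, 6 lay on either side of 0, the median log2 ratio was 0.01, and their summed signal was 1200 in GF and 1193 in colonized mice. Icam2 alone gave 519 and 509 of these sums, so they rest in large part on 1 gene. In the epithelial cells, 0 of 11 was 2-fold apart, with a median of −0.04 and summed signals of 452 and 451. Cdh5, which is made in all endothelium but was counted with the junction genes, instead had the signs of the lymphatic genes, with a log2 ratio of −0.88 in the patch and at least 0.40 in the epithelial cells, where its signal was 11.6 in GF and 20.4 in colonized mice. Of 6 measured markers of high endothelial venules, the vessels by which lymphocytes enter the patch, 1 was at least 2-fold higher in the patch, Glycam1 with 565 in GF-PP and 2457 in NK318.1-PP, and the median was 0.15. Besides Glycam1, 4 lay above 0, at log2 ratios of 0.09 to 0.32, and Gcnt1 lay below it at −0.27, but at 0.24 with another probe set. In the epithelial cells 6 of these markers were measured, 5 above 0 and 1 below, with a median of 0.14. Cd34 alone was at least 2-fold higher there, with 9.90 in GF-IEC, under the floor, and 31.2 in NK318.1-IEC. By that limit, 2.63% of all measured genes were higher.

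Markers of other cells in which members of the list are also made moved in part with them. All 7 measured markers of resident macrophages, which can carry LYVE1, lay below 0 in the patch, with 0 of them 2-fold lower, a median log2 ratio of −0.42 and summed signals of 2894 in GF and 2272 in colonized mice. Csf1r alone gave 1835 and 1557 of these sums. In the epithelial cells the macrophage markers had a median of 0.16 over 5 genes and summed signals of 281 and 269. Of 9 fibroblast and reticular cell markers, the cells in which podoplanin is also found, 7 lay below 0 in the patch, with a median of −0.22 and summed signals of 2568 and 2100. Cxcl13 alone gave 1687 and 1374 of these sums. The collagen genes Col1a2, with 140.4 in GF-PP and 70.3 in NK318.1-PP (just short of the 2-fold limit), and Col3a1, with 78.9 and 44.3 (log2 ratio −0.83), were as far below 0 as Lyve1 and Pdpn. In the epithelial cells 4 of the 9 were at least 2-fold higher, the proteoglycan genes Dcn (log2 ratio 1.94) and Lum (1.57), Col1a2 (1.70, but 0.23 with another probe set) and the growth factor receptor gene Pdgfra (1.25), and the summed signal was 506 in GF and 1344 in colonized mice. Dcn alone gave 214 and 823 of these sums. Over the 9, the median was 0.67, with 7 above 0 and 2 below, Pdgfrb (−0.49, but 0.15 with another probe set) and Col1a1 (−0.37), while Thbs2 had 0.01. Most of these stromal markers thus had the sign of the lymphatic genes in each tissue, and their part in the differences was not tested.

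Smooth muscle markers showed the same. All 7 lay above 0 in the epithelial cells, 3 of them at least 2-fold higher, led by the actin gene Acta2 (log2 ratio 1.84), and the summed signal was 211 in GF and 540 in colonized mice, whereas in the patch the median was −0.27 over 5 genes, with 222 and 184. Of the platelet and megakaryocyte markers, 4 were measured and 0 was 2-fold apart in either tissue, with medians of −0.13 and −0.16, and Ppbp and Gp6 were under the floor. Lymphocyte markers had a median of 0.03 in the patch, with summed signals of 12053 and 12444, but in the epithelial cells 3 of 6 were at least 2-fold lower and the sum went from 824 to 360. Of 7 enterocyte and epithelial markers in the epithelial cells, 6 lay below 0 and 0 was 2-fold apart, with summed signals of 29455 and 23204, and of 7 enteroendocrine markers 5 lay above 0, with a median of 0.75 and summed signals of 2206 and 3327. In the patch, the epithelial markers had a median of −0.24 over 4 genes and the enteroendocrine markers −0.14 over 2. Each of these sums weighs the brightest genes of its list most, and the part of these cells in the differences was not tested.

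The likeness of other genes was measured as the root mean square difference of log2 signals, each gene centred on its mean over the 4 arrays. Among 14252 genes, the 5 closest to the median profile of the 5 measured lymphatic genes were Hmgn1 (0.034), Topbp1 (0.037), Fyco1 (0.043), Timeless (0.051) and Mcm4 (0.053). This profile was near that of Flt4, at 0.13, and far from those of Lyve1 (0.75), Pdpn (0.82), Mmrn1 (0.84) and Reln (1.01), so it stands for none of the genes that moved. Taken gene by gene, after the values were seen, the closest gene to Lyve1 was Tor3a (0.11), followed by Bst2 (0.17), and the closest to Flt4 was Aff1 (0.023). Pdpn had Cenph (0.0070), Gpx3 (0.058) and the collagen gene Col3a1 (0.068), and Mmrn1 had the collagen genes Col1a2 (0.22) and Col14a1 (0.23) and then Ncapg (0.26). Reln stood further from its neighbours, with Tpst1 at 0.41, Far1 at 0.44 and Lyve1, at rank 5, at 0.47, behind an immunoglobulin κ variable gene at 0.37. With 4 arrays such likeness describes these arrays alone.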

How the data were processed

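RNA was labelled as biotinylated cRNA and hybridized to 4 Affymetrix 3′ expression arrays, 1 for each pool of mice. The deposited table holds linear intensity, which, per the labels, the authors computed with MAS5 for every probe set. No version or setting of MAS5 is stated in the sources used. The same intensity occurs on both arrays in 310 probe sets of the Peyer's patch and 82 of the epithelial cells, so a further step after MAS5 is possible and the lowest intensities may be compressed. The methods of the study also name R and limma, whose adjusted p-value needs replicates. Only the 2-fold limit was kept.

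Probe sets were named through the annotation of the array. Of 45037, 9160 had no gene and 932 several, and these were left out, as were 64 controls. The intensity was used without further scaling. As floor, the 40th percentile of each array was taken and the median of the 4 used. A fold with 1 value at the floor is a lower bound. With 1 array per group, no p-value or SD exists, and the precision is limited by the number of arrays.

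The members, the gene lists and the alternatives were chosen with earlier results of these data known. Genes named were all members, pathway genes at least 2-fold apart, up to 3 highest and lowest of a list, and the 5 closest profiles. Gene by gene neighbours and the further genes apart in both tissues were picked with their values in view. The alternatives tried were quantile normalization, median centring, other floors, the mean over probe sets, less specific probe sets left out, and limits of 1.5-fold and 4-fold. The procedure was tested on simulated data in which the changed genes lay well above the floor, so the test does not cover signals near the floor. Python 3.11.15, numpy 2.4.6, pandas 2.3.3 and matplotlib 3.10.9 were used. Promoters are those of RefSeq on GRCm38.p6.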

Additional observations from a re-analysis of the deposited data

Results flagged for a closer look

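For 4 genes, the colonized array lay at least 1.5-fold below the GF array in the Peyer's patch and at least 1.5-fold above it in the epithelial cells. Flt4 had the same signs with its first probe set, at log2 ratios of −0.25 and 0.05, and fell short of 1.5-fold. Its other probe set lay above 0 in both tissues, at 0.08 and 0.12. The log2 ratio in the epithelial cells was higher than that in the Peyer's patch by 1.58 for Lyve1 and 1.45 for Pdpn. It was higher by 3.33 for Reln and 2.90 for Mmrn1, both lower bounds because an array lay under the floor. The difference was not tested, since every group is 1 array.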

How the results depend on the processing

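All 64 values of single members that the alternatives gave kept their sign, and 59 of them moved by less than 0.20 in the Peyer's patch or 0.38 in the epithelial cells, the spread of ratios over the central 68% of all genes, divided by 2. For part of the alternatives the sign was fixed in advance. Another floor cannot turn a sign, and no member was represented by a less specific probe set, so leaving those out changed no value. The count of members past the fold limit depended on it. In the Peyer's patch, 2 became 4 at 1.5-fold, 0 at 4-fold, 1 of 3 measured when the floor was the 60th percentile and 0 of 4 with the mean over probe sets, and the median log2 ratio became −0.75 with the mean over probe sets. In the epithelial cells, 2 became 4 at 1.5-fold and 0 at 4-fold, 0 of 3 measured with the mean over probe sets and 0 of 4 when the floor was the 60th percentile. The share of all genes past the limit was not computed for these alternatives, so nothing is read from these counts. No value was left for Mmrn1 in either tissue and Reln in the epithelial cells with the mean over probe sets, nor for Mmrn1 and Pdpn in the Peyer's patch and Flt4 in the epithelial cells with the higher floor. The higher floor, 37.3, lies above most signals of Mmrn1, and averaging brings in the probe sets of Reln and Mmrn1 that lay under the floor. With no floor, the log2 ratio of Mmrn1 in the epithelial cells was 2.71, and with the floor at the 25th percentile 2.53. With the 60th percentile, those of Mmrn1 and Reln were 0.42 and 0.59, and with the mean over probe sets that of Reln in the Peyer's patch was −0.82. The other 23 counts and medians stayed within 1.5 times the count or within that spread. No paired analysis was possible because no group has more than 1 array. The signals of Mmrn1, Pdpn and Flt4 lay within a few times the floor, which limits their ratios.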
